A study of Mus musculus with 9 samples.

Results

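The genes described here encode the subunits and assembly factors of mitochondrial complex I, chosen as every gene whose array annotation symbol begins with Nduf and is the only symbol of its probe set. Where a gene had several such probe sets, the brightest, by its mean over the 9 arrays, stood for it. This gave 44 of the 18193 genes measured: 34 subunits, 8 assembly factors (symbols beginning with Ndufaf), and Ndufa4 with its paralog Ndufa4l2, which were kept apart. They were measured in 3T3-L1 adipocytes, fat cells differentiated in culture from a mouse preadipocyte line, on 9 arrays in 3 groups of 3. The control group had been given linoleic acid (LA), the second group conjugated linoleic acid (CLA) and the third phenformin. The labels call the arrays of a group biological replicates of 1 line. They give no dose, time or CLA isomer, and do not say whether the phenformin dishes also held LA, so the treatments are not known to be matched. Fewer cells of a type and less RNA per cell cannot be told apart in bulk RNA.

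Complex I takes electrons from NADH, passes them along iron-sulfur clusters to ubiquinone and pumps protons across the inner mitochondrial membrane. An NADH module and a quinone module form the arm in the matrix, and proximal and distal pump modules form the arm in the membrane. Core subunits carry out the catalysis, accessory subunits surround them, and assembly factors help to build the complex without remaining in it. Phenformin, a biguanide, is known as an inhibitor of complex I. In white adipocytes the respiratory chain supplies ATP and reoxidizes NADH while fat is made and broken down. The comparisons ask how the transcripts of this complex differ after CLA or phenformin and between those treatments.

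Values are log2 expression values of a probe set, differences are log2 fold changes ± SE, group levels are mean ± SD with n = 3 arrays, and a gene is called when its limma p, adjusted over 45037 probe sets, is under 0.05. Both comparisons with LA use the same 3 LA arrays, and LA replicate 3 stood apart. Its 99th percentile was 11.63 against 12.20 to 12.48 on the other arrays. On the LA arrays the 3' probe set of actin exceeded the 5' one by 1.28 ± 0.39, against 0.53 ± 0.10 on the CLA arrays and 0.56 ± 0.09 on the phenformin arrays, a measure that grows when RNA is shortened. Adipocyte markers had a mean level of 12.11 to 12.83 on the LA arrays, 12.30 to 12.41 on the CLA arrays and 12.54 to 12.73 on the phenformin arrays, and of 10 measured, 1 rose and 2 fell in CLA and 2 rose in phenformin against LA. Preadipocyte and fibroblast markers were at 8.77 to 9.18, 10.25 to 10.46 and 9.81 to 10.25 in the same order, and of 7 measured 5 rose in CLA and 4 in phenformin against LA. Brown adipocyte markers were at 6.98 to 7.78, 5.88 to 5.98 and 6.497 to 6.61, and 3 of 5 (Cidea, Cox7a1 and Cox8b) fell against LA in both. Between phenformin and CLA, 2 of 5 brown adipocyte markers, Cox7a1 (1.24 ± 0.19) and Cox8b (1.09 ± 0.20), were called higher in phenformin. Of 10 adipocyte markers only the glucose transporter Slc2a4 (1.66 ± 0.19) was called, also higher. Of 7 preadipocyte and fibroblast markers only Thy1 was called, which fell by 1.21 (limma adjusted p = 0.0011 to 0.0302 for these calls). Log2 fold changes were above 0 for 4 of 5, 8 of 10 and 3 of 7 markers in that order. Macrophage markers had mean levels of 4.78 to 4.87, 4.904 to 5.07 and 4.66 to 4.72. Of the 8, Ptprc, Itgam and Mrc1 were not above background in any group and Adgre1 in neither treated group, while Cd68, Csf1r, Lyz2 and Cd14 were above it. Cd14, a receptor of bacterial lipopolysaccharide, rose by 0.72 ± 0.20 in CLA (adjusted p = 0.0359) and fell by 0.73 in phenformin against LA (adjusted p = 0.0337) and fell by 1.44 in phenformin against CLA (adjusted p = 0.00347). Of all genes, 12.6% were called higher and 7.58% lower in CLA against LA, and 13.7% and 5.11% in phenformin against LA. Between phenformin and CLA the shares were 3.95% and 2.35%. The part of the array and marker differences in the results was not tested.

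Levels of the complex I genes were high: 30 of the 34 subunits had a mean over the 9 arrays above 11, on arrays whose highest values were 13.57 to 14.78. By array, the median of the 34 subunits was 11.95, 12.01 and 11.51 on LA replicates 1, 2 and 3, 11.78, 11.82 and 11.97 on the CLA arrays, and 12.11, 12.06 and 12.19 on the phenformin arrays. Every phenformin array lay above every other array in this median, and LA replicate 3 lay lowest. After quantile normalization the order turned: the LA arrays had 12.04, 11.98 and 12.16, with LA replicate 3 the highest of all, the CLA arrays 11.7 to 11.83 and the phenformin arrays 11.95 to 12.02. The assembly factors had medians of 8.75, 8.85 and 8.48 in LA, 8.36, 8.43 and 8.42 in CLA and 8.89, 8.91 and 8.82 in phenformin. CLA arrays were the lowest here and their values did not overlap with those of the other groups. Of the 44 genes, 29 had their lowest value on LA replicate 3 and 28 their highest on a phenformin array.

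**Figure D1:**
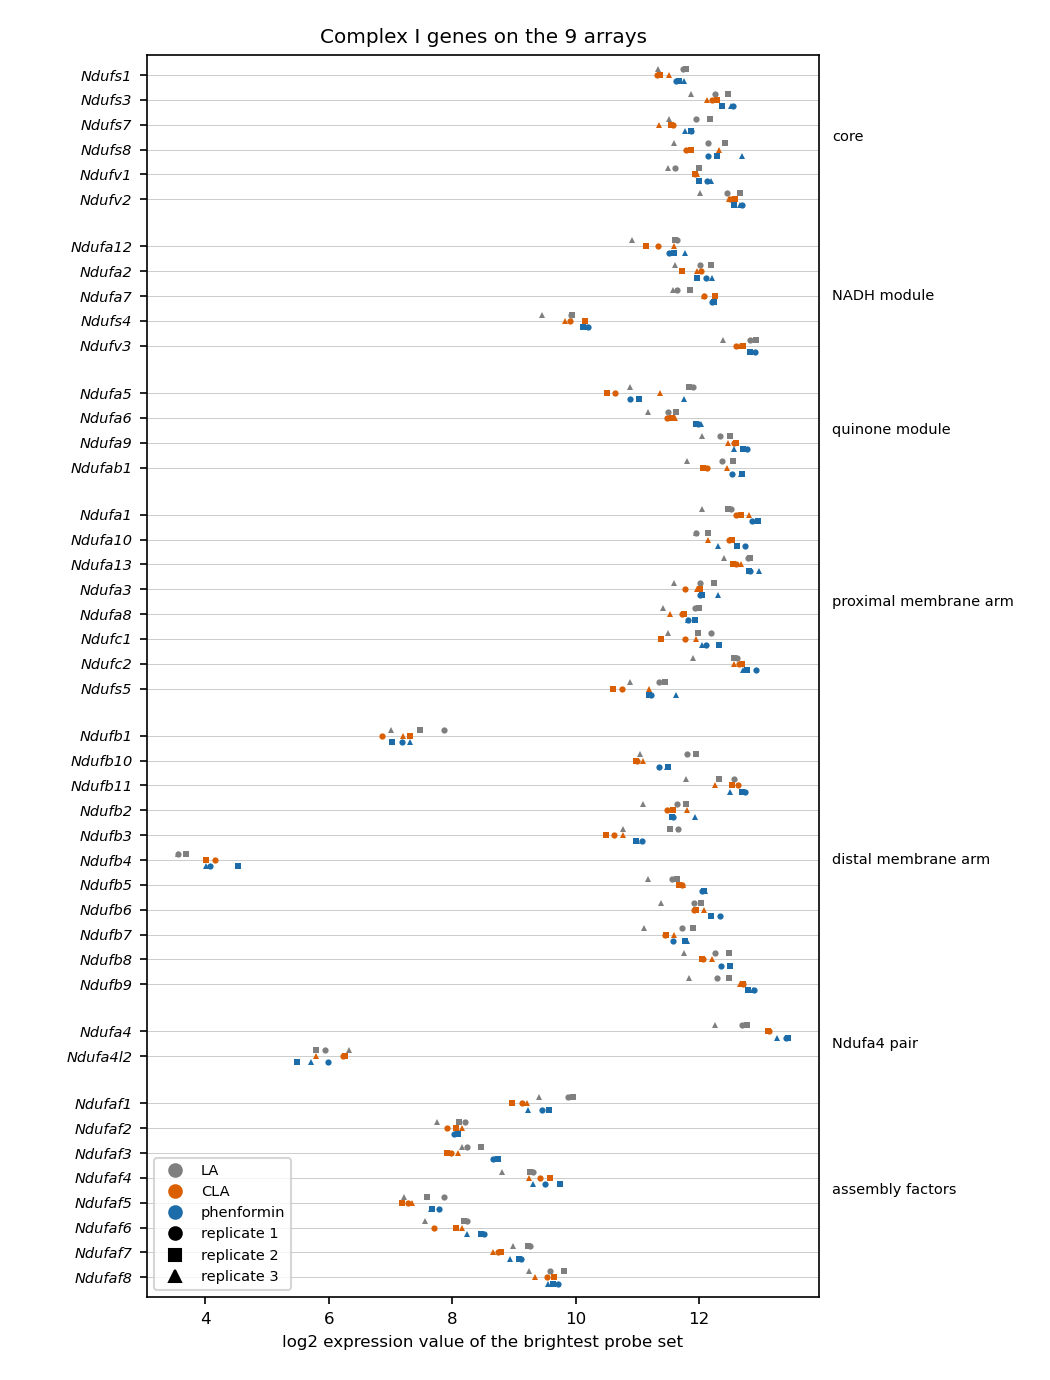
Log2 expression values (horizontal axis) of the brightest probe set of each of the 44 complex I genes on the 9 arrays, grouped by role, with colour for the group and shape for the replicate. The triangle of LA replicate 3 is the lowest point for 29 genes, and a phenformin point is the highest for 28.

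Against LA, CLA left most complex I genes without a call. Of the 44, 2 rose (Ndufa7 and Ndufa4) and 3 fell (Ndufb3, Ndufaf1 and Ndufaf7). Of all genes tested, 12.6% were called higher and 7.58% lower, so the members' counts lay below the background in the higher direction and close to it in the lower. In 6 genes every CLA array lay above every LA array, where 19.8% of all genes did, and in 4 every CLA array lay below, where 13% did. The median log2 fold change was -0.03 over the 44 genes and 0.05 over all genes, and 20 of 44 values were above 0.

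Against LA, phenformin gave 9 genes called higher, from all 4 accessory groups, the assembly factors and the Ndufa4 pair, and 0 called lower. The background was 13.7% of genes called higher and 5.11% called lower. At an unadjusted p under 0.05 the members passing numbered 16 of 44, beside 32.1% of all genes, a share near the background. In 14 genes every phenformin array lay above every LA array, beside 21.2% of all genes, and in 0 below, beside 13.7%. The median log2 fold change was 0.27 over the 44 genes, 36 of them above 0, and 0.01 over all genes. These counts depend on the LA arrays and on the scaling. The median was 0.13 with probe sets averaged, with 32 values above 0, and 0.11 with arrays weighted by quality, with 29 above 0. Without LA replicate 3, 7 genes were called higher and 3 lower (Ndufb10, Ndufb3 and Ndufaf1) and the median was 0.08. Without phenformin replicate 2, 5 were called higher. After quantile normalization of the deposited values, which gives all arrays the same range, 2 were called higher and 5 lower and the median was -0.10. Of 45037 probe sets, 7620 were called without LA replicate 3, 5075 without phenformin replicate 2 and 7823 after quantile normalization. Of these calls 62.2%, 74.4% and 48.7% were higher.

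The same choices moved CLA against LA. Without LA replicate 3, 2 genes were called higher and 7 lower, with a median of -0.20. Genes called higher numbered 1 without LA replicate 1 or CLA replicate 1 and 0 without CLA replicate 2. Genes called lower numbered 0 without LA replicate 1 or 2 or CLA replicate 1 or 2, and 1 without CLA replicate 3. Calls over all probe sets changed as well, from 7426 to 5275 and 6003 without LA replicates 1 and 2. They numbered 4788, 5066 and 8313 without CLA replicates 1, 2 and 3. Quantile normalization gave 0 called higher and 19 lower, with a median of -0.36, beside -0.01 over all probe sets. Of 45037 probe sets, 7837 were called without LA replicate 3, 54% of them higher, and 8397 after quantile normalization. Over all probe sets the share of calls that were higher was 61.4% as deposited and 46.3% after quantile normalization in CLA against LA, 69.8% and 48.7% in phenformin against LA, and 63.1% and 52.6% in phenformin against CLA. With RNA integrity, measured as the 3' minus 5' probe set difference of pyruvate carboxylase, as a covariate in the fit, 1 complex I gene (Ndufa10) was called higher in CLA and 3 (Ndufa10, Ndufb11 and Ndufa4) in phenformin, with 0 lower, so the other calls against LA were lost. The fold changes in phenformin against LA were about as large in that fit, with a median of 0.325 over the 44 genes and 0.305 over the subunits, against 0.27 for both as reported, and 35 of 44 above 0. In CLA against LA that median was 0.04, with 23 above 0.

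Between phenformin and CLA, whose fold changes do not involve the LA arrays, the genes lay mostly to one side and few were called. The log2 fold change was above 0 for 43 of 44 genes, with Ndufa4l2 the exception at -0.37 ± 0.19, against 44.4% of all genes. The median was 0.24 over the 44 genes, 0.22 over the 34 subunits, 0.31 over the 8 assembly factors and -0.03 over all genes. Only Ndufaf3 was called, higher in phenformin, beside 3.95% of all genes called higher and 2.35% called lower. At an unadjusted p under 0.05, 8 of 44 passed, beside 20.6% of all genes, which is no more than the background. In 25 genes every phenformin array lay above every CLA array, beside 15.6% of all genes, and in 0 below, beside 11.6%. With 3 arrays against 3 an exact permutation test of a single gene cannot go below p = 0.10. Genes without overlap numbered 28 after median centring, 22 after quantile normalization and 29 over averaged probe sets. The median over the 44 genes was 0.28 after median centring and 0.22 after quantile normalization, with 43 and 41 values above 0. Leaving out LA replicate 3, which changes the estimate of the spread and not the fold changes, raised the called genes to 5 (Ndufa6, Ndufb10, Ndufb5, Ndufaf3 and Ndufaf5). Over all probe sets the calls rose from 2048 to 3085.

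**Figure D2:**
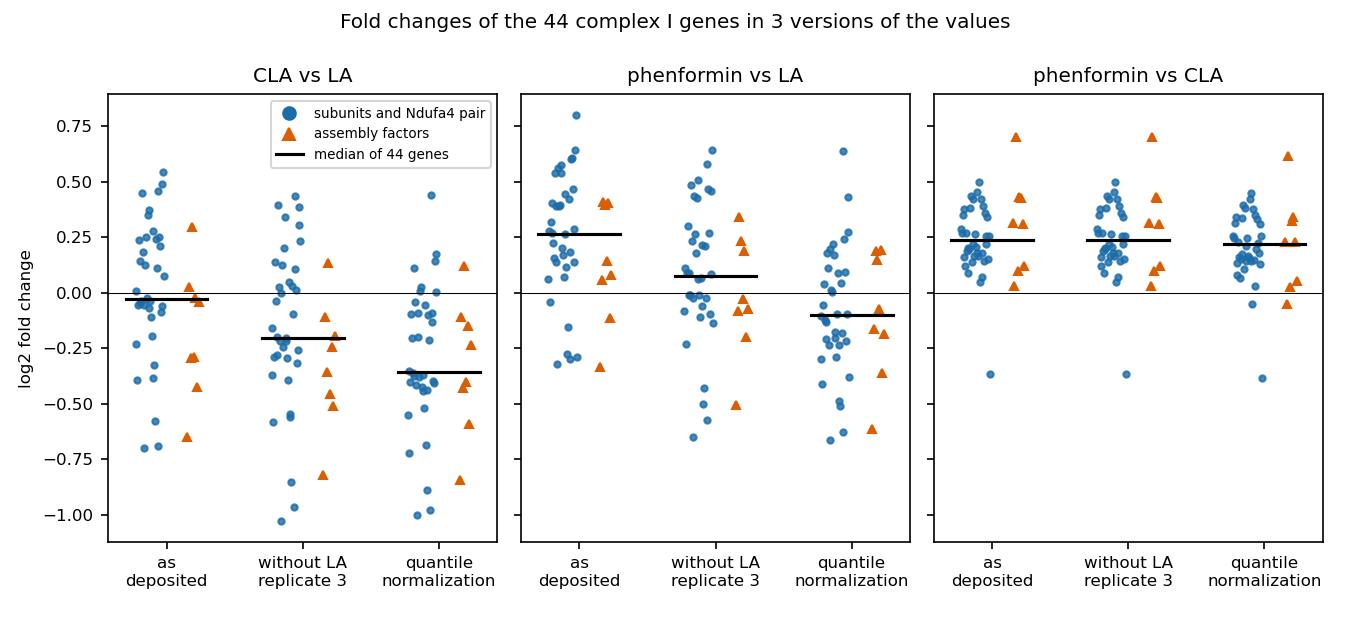
Log2 fold changes (vertical axis) of the 44 genes in 3 comparisons, from the deposited values, without LA replicate 3 and after quantile normalization, with circles for subunits and the Ndufa4 pair, triangles for assembly factors and a bar for the median. The median moves from -0.03 to -0.36 in CLA vs LA and from 0.27 to -0.10 in phenformin vs LA under quantile normalization, and from 0.24 to 0.22 in phenformin vs CLA.

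None of the 6 core subunits described here was called in any comparison (limma). At an unadjusted p under 0.05, 1 passed in CLA against LA, where 32.8% of all genes did. In phenformin, 1 passed against LA, beside 32.1% of all genes, and 0 against CLA, beside 20.6%. Ndufv1, which binds NADH and the flavin, stood at 11.62, 11.997 and 11.50 in LA, 11.93, 11.93 and 11.98 in CLA and 12.13, 12.01 and 12.19 in phenformin. Every phenformin array lay above every LA and CLA array, with the closest values at 12.01 in phenformin replicate 2 and 11.997 in LA replicate 2, and the difference from LA was 0.40 ± 0.14 (adjusted p = 0.0718). Its iron-sulfur partner in the NADH module, Ndufv2, had 0.14 ± 0.15 in CLA and 0.27 ± 0.15 in phenformin against LA, and Ndufs1, which carries further clusters, -0.23 ± 0.14 and 0.06 ± 0.14. In the quinone module, Ndufs3 had 0.01 ± 0.15 and 0.28 ± 0.15, Ndufs8 -0.06 ± 0.23 and 0.32 ± 0.23, and Ndufs7, which lies next to the ubiquinone site, -0.39 ± 0.16 and -0.04 ± 0.16. For Ndufs7 the CLA values of 11.58, 11.55 and 11.35 overlapped with LA through LA replicate 3, at 11.51, while the other LA arrays were at 11.95 and 12.18. It was called lower in CLA without that array. Between phenformin and CLA the 6 core subunits ran from 0.12 (Ndufv2) to 0.38 (Ndufs8). For 4 of 6 every phenformin array lay above every CLA array, beside 15.6% of all genes.

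Of the 5 accessory subunits of the NADH module measured, Ndufa7 rose in both comparisons with LA. Of all genes, 12.6% were called higher in CLA and 13.7% in phenformin. Its values were 11.65, 11.85 and 11.58 in LA, 12.08, 12.27 and 12.09 in CLA and 12.22, 12.25 and 12.24 in phenformin. The LA arrays lay below all others, and CLA and phenformin overlapped. Ndufa7 was higher by 0.45 ± 0.11 in CLA (1.37-fold, adjusted p = 0.0208) and by 0.54 ± 0.11 in phenformin (1.45-fold, adjusted p = 0.00859), while phenformin and CLA differed by 0.09 with a 95% interval of -0.16 to 0.34. Its probe set is of a type (x_at) whose probes can match further transcripts, and its 4 other probe sets had values of 0.21 to 0.60 in CLA and 0.34 to 0.59 in phenformin. The CLA call did not hold when LA replicate 1 (adjusted p = 0.0718) or CLA replicate 2 (0.0739) was dropped or after quantile normalization (0.11, adjusted p = 0.646). It was also lost in a fit of CLA and LA alone (0.0572), with an intensity trend and robust estimation (0.0731) and with the covariate (0.142). The phenformin call was lost after quantile normalization (0.18, adjusted p = 0.453) and with the covariate (0.114). Ndufs6 was not reached, since its probe set carries more than 1 symbol. Ndufs4, needed for a stable NADH module, had 0.19 ± 0.15 in CLA and 0.39 ± 0.15 in phenformin, where all arrays lay above LA (adjusted p = 0.109). The other members of the module, Ndufa2, Ndufa12 and Ndufv3, ran from -0.06 to -0.03 in CLA and from 0.14 to 0.23 in phenformin, without a call.

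In the quinone module and its junction to the membrane arm, Ndufa6, a subunit of the LYR protein family, rose in phenformin. Its values were 11.49, 11.62 and 11.17 in LA, 11.49, 11.57 and 11.61 in CLA and 11.99, 11.95 and 12.04 in phenformin. The phenformin arrays lay above all 6 others, which overlapped among themselves. The difference from LA was 0.56 ± 0.13 (1.48-fold, adjusted p = 0.0130) and that from CLA 0.44 ± 0.13 (1.35-fold, adjusted p = 0.0938). After quantile normalization the first was 0.20 (adjusted p = 0.238), and the covariate gave 0.56 (0.153). Ndufab1 is the mitochondrial acyl carrier protein, and Ndufa9 binds NADPH. In phenformin against LA they had 0.40 ± 0.19 and 0.39 ± 0.13, and in CLA -0.02 ± 0.19 and 0.25 ± 0.13. Neither was called on its brightest probe set. Ndufa5 had the widest spread, with 11.90, 11.84 and 10.88 in LA, 10.63, 10.51 and 11.38 in CLA and 10.88, 11.03 and 11.76 in phenformin. Replicate 3 was low in LA and high in the other groups, all groups overlapped, and the interval of CLA against LA was -1.43 to 0.03.

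Of the 8 accessory subunits of the proximal membrane arm measured, Ndufa1 and Ndufa10 rose in phenformin against LA, where 13.7% of all genes did. Ndufa1, a small membrane subunit, was at 12.53, 12.46 and 12.05 in LA, 12.61, 12.68 and 12.81 in CLA and 12.85, 12.97 and 12.95 in phenformin. The 3 groups did not overlap. Ndufa1 was higher by 0.57 ± 0.14 in phenformin (1.49-fold, adjusted p = 0.0172), a call that did not hold without phenformin replicate 2 (adjusted p = 0.0637) and after quantile normalization (0.22, 0.205). In CLA it had 0.35 ± 0.14 (adjusted p = 0.1198). Ndufa10, which resembles nucleoside kinases, was at 11.95, 12.15 and 11.96 in LA, 12.49, 12.54 and 12.14 in CLA and 12.75, 12.62 and 12.31 in phenformin. Replicate 3 was the lowest in both treated groups. The phenformin difference of 0.54 ± 0.15 (1.45-fold, adjusted p = 0.0345) did not hold when any of these arrays was dropped: LA replicate 1 (adjusted p = 0.104), LA replicate 3 (0.0740), CLA replicate 1 (0.0512), phenformin replicate 1 (0.136) or phenformin replicate 2 (0.112). It was also lost after quantile normalization (0.17, adjusted p = 0.6298) and with trend and robust estimation (0.0675). The subunits Ndufa3, Ndufa8, Ndufa13, Ndufc1, Ndufc2 and Ndufs5 had 0.07 to 0.45 in phenformin and -0.38 to 0.28 in CLA against LA, without a call. Ndufa8 and Ndufs5 face the intermembrane space, and Ndufa13 is also known as a cell death regulator. Ndufa11 was not reached by the rule, since its probe sets carry several symbols.

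Of the 11 distal membrane arm subunits, Ndufb4, Ndufb5 and Ndufb9 rose in phenformin and Ndufb3 fell in CLA, each against LA. Of all genes, 13.7% were called higher in phenformin and 7.58% lower in CLA. Ndufb5 was at 11.57, 11.64 and 11.18 in LA, 11.72, 11.68 and 11.74 in CLA and 12.04, 12.08 and 12.09 in phenformin. The 3 groups were separate, and LA replicate 3 was the lowest array. The difference of phenformin from LA was 0.61 ± 0.13 (1.53-fold, adjusted p = 0.00941), that from CLA 0.36 ± 0.13 (adjusted p = 0.182) and that of CLA from LA 0.25 ± 0.13 (adjusted p = 0.242). After quantile normalization the call against LA was lost (0.24, adjusted p = 0.121).

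Ndufb9, another LYR family subunit, was at 12.29, 12.50 and 11.84 in LA, 12.71, 12.72 and 12.67 in CLA and 12.89, 12.79 and 12.87 in phenformin. All 3 groups were separate, and the phenformin difference from LA was 0.64 ± 0.15 (1.56-fold, adjusted p = 0.0164). A second probe set of Ndufb9 with a mean of 12.51 had 0.17 there and -0.12 in CLA, and the mean of its probe sets gave 0.21 (adjusted p = 0.265). The call did not hold either without phenformin replicate 1 (adjusted p = 0.0606), after quantile normalization (0.27, 0.08399) or with the covariate (0.77, 0.0989). Ndufb3 was at 11.66, 11.52 and 10.76 in LA, 10.63, 10.50 and 10.76 in CLA and 11.08, 10.98 and 11.0005 in phenformin. LA replicate 3 lay only just above the highest CLA array. Ndufb3 fell by 0.69 in CLA (SE 0.20, adjusted p = 0.0428), and the call did not hold when any array but LA replicate 3 was dropped. The adjusted p was then 0.154 and 0.137 without LA replicates 1 and 2, 0.1202, 0.143 and 0.0513 without CLA replicates 1, 2 and 3, and 0.0658, 0.0628 and 0.0569 without phenformin replicates 1, 2 and 3. Without LA replicate 3 the value was -0.96 (adjusted p = 0.000588).

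The probe set of Ndufb4 lay near background, at 3.55, 3.69 and 3.55 in LA, 4.16, 4.004 and 4.004 in CLA and 4.08, 4.52 and 4.004 in phenformin, so that 3 arrays held the same value. Since no LA array had it above background, phenformin was at least 1.18-fold higher (adjusted p = 0.0167) and CLA at least 1.06-fold (adjusted p = 0.0557). Its phenformin call did not hold when LA replicate 1 (adjusted p = 0.0571) or phenformin replicate 2 (0.0528) was dropped. Probe sets that carry the symbol of Ndufb4 beside others had means of 11.34 and 11.41, so the value of its own probe set is no measure of that transcript's abundance. Those bright probe sets had -0.08 ± 0.23 and -0.03 ± 0.25 in phenformin and -0.34 ± 0.23 and -0.48 ± 0.25 in CLA against LA, without a call, so they did not show the rise counted for Ndufb4 among the 9 genes. Ndufb10 had -0.58 ± 0.20 in CLA (adjusted p = 0.0794), with LA replicates at 11.80, 11.95 and 11.05 and CLA between 10.99 and 11.09, and it was called lower without LA replicate 3. Ndufb1, Ndufb2, Ndufb6, Ndufb7, Ndufb8 and Ndufb11 had -0.33 to 0.24 in CLA and -0.28 to 0.47 in phenformin against LA, without a call on the brightest probe set. Another bright probe set of Ndufb11 (mean 12.19) was called higher in phenformin, at 0.47 ± 0.11 (limma adjusted p = 0.0137). A dimmer one of Ndufb8 (mean 7.77) fell by 0.75 in CLA (SE 0.22, adjusted p = 0.0382). For Ndufb6 every phenformin array, at 12.19 to 12.33, lay above every LA array, at 11.38 to 12.03.

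Ndufa4, once counted as a complex I subunit and now placed in complex IV, had the largest difference from LA among the 44 genes in phenformin. It was at 12.69, 12.78 and 12.26 in LA, 13.14, 13.12 and 13.11 in CLA and 13.42, 13.45 and 13.27 in phenformin. The 3 groups were separate, in the order LA, CLA, phenformin. Ndufa4 rose by 0.80 ± 0.14 in phenformin (1.74-fold, adjusted p = 0.00337) and by 0.55 ± 0.14 in CLA (1.46-fold, adjusted p = 0.0241). The phenformin call held in all 18 alternatives, with values of 0.43 to 0.99, and 0.43 came from quantile normalization. The CLA call did not hold when CLA replicate 1 (adjusted p = 0.0789) or 2 (0.0667) was dropped or after quantile normalization (0.17, 0.331), nor in a fit of CLA and LA alone (0.0568), with trend and robust estimation (0.0604) or with the covariate (0.73, 0.0602). Phenformin and CLA differed by 0.26 ± 0.14 (adjusted p = 0.417). Its paralog Ndufa4l2, known as a hypoxia-induced gene, was at 5.94, 5.79 and 6.32 in LA, 6.24, 6.26 and 5.79 in CLA and 5.99, 5.48 and 5.72 in phenformin. These groups overlapped, with differences of 0.08 ± 0.19 in CLA and -0.29 ± 0.19 in phenformin against LA.

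**Figure D3:**
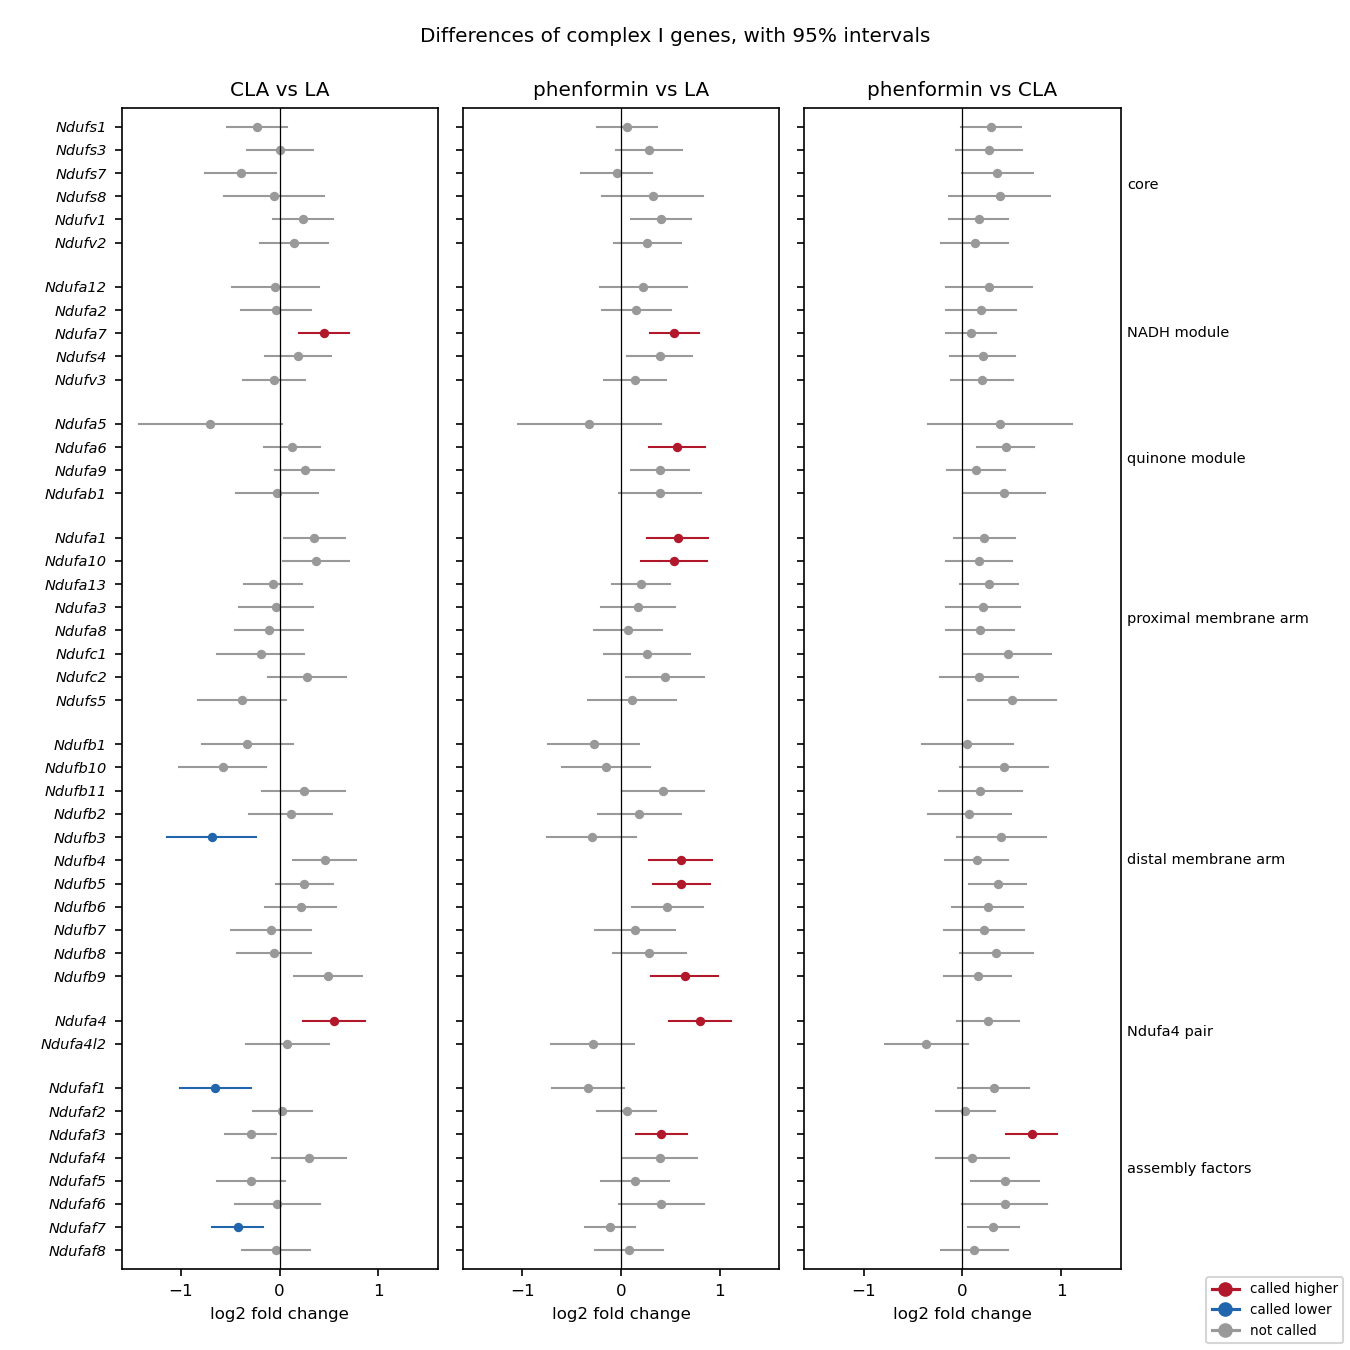
Log2 fold changes (horizontal axis, points) with 95% intervals (lines) of the 44 complex I genes in 3 comparisons, ordered by role, in colour where limma called them from the deposited values. In phenformin vs CLA 43 of 44 points lie to the right of 0 and 1, Ndufaf3, was called.

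Of the 8 assembly factors, Ndufaf1 and Ndufaf7 fell in CLA against LA, beside 7.58% of all genes called lower. In phenformin Ndufaf3 rose, beside 13.7% of all genes called higher against LA and 3.95% against CLA. Ndufaf3, which with Ndufaf4 takes part in building the quinone module, was at 8.24, 8.47 and 8.16 in LA, 7.98, 7.92 and 8.10 in CLA and 8.66, 8.74 and 8.70 in phenformin. The 3 groups were separate, with CLA lowest and phenformin highest. Phenformin and CLA differed by 0.70 ± 0.12 (1.63-fold, 95% interval 0.45 to 0.96, adjusted p = 0.00771), a call that held in all 18 alternatives, with values of 0.62 to 0.75. Against LA, Ndufaf3 rose by 0.41 ± 0.12 in phenformin (adjusted p = 0.0351) and had -0.29 ± 0.12 in CLA (adjusted p = 0.122). The call against LA did not hold when any of these was dropped: LA replicate 1 (adjusted p = 0.103), LA replicate 3 (0.0789), CLA replicate 1 (0.0533) or phenformin replicates 1 (0.0836), 2 (0.114) and 3 (0.0817). After quantile normalization it was 0.19 (adjusted p = 0.227).

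Ndufaf1, a chaperone of the intermediate assembly complex of the membrane arm, was at 9.88, 9.97 and 9.41 in LA, 9.13, 8.97 and 9.21 in CLA and 9.45, 9.58 and 9.22 in phenformin. All CLA arrays lay below all LA arrays. Ndufaf1 fell by 0.65 in CLA (SE 0.16, adjusted p = 0.0203), a call that did not hold when LA replicate 1 (adjusted p = 0.0780), LA replicate 2 (0.0757), CLA replicate 1 (0.0617) or CLA replicate 2 (0.07998) was dropped, and held after quantile normalization. In phenformin it had -0.33 ± 0.16 against LA (adjusted p = 0.209). Ndufaf7, an arginine methyltransferase, was at 9.26, 9.23 and 8.99 in LA, 8.74, 8.80 and 8.67 in CLA and 9.12, 9.08 and 8.94 in phenformin. The CLA arrays lay below those of both other groups, which overlapped. Ndufaf7 fell by 0.42 in CLA (SE 0.12, adjusted p = 0.0315), and the call did not hold when LA replicate 1 (adjusted p = 0.111) or 2 (0.0954) or CLA replicate 1 (0.0861), 2 (0.0569) or 3 (0.0697) was dropped. The other factors were not called on their brightest probe sets. Ndufaf5, a hydroxylase of Ndufs7, and its partner Ndufaf8 had -0.29 ± 0.15 and -0.04 ± 0.15 in CLA and 0.14 ± 0.15 and 0.08 ± 0.15 in phenformin against LA. A second, dimmer probe set of Ndufaf8 (mean 7.49 against 9.56) was called lower in CLA, by 0.51 (SE 0.15, limma adjusted p = 0.0389). Ndufaf5 lay at 7.28, 7.19 and 7.35 in CLA and 7.78, 7.67 and 7.65 in phenformin, without overlap (0.43 ± 0.15, adjusted p = 0.176). Ndufaf2, Ndufaf4 and Ndufaf6 had -0.02 to 0.30 in CLA and 0.06 to 0.41 in phenformin.

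**Figure D4:**
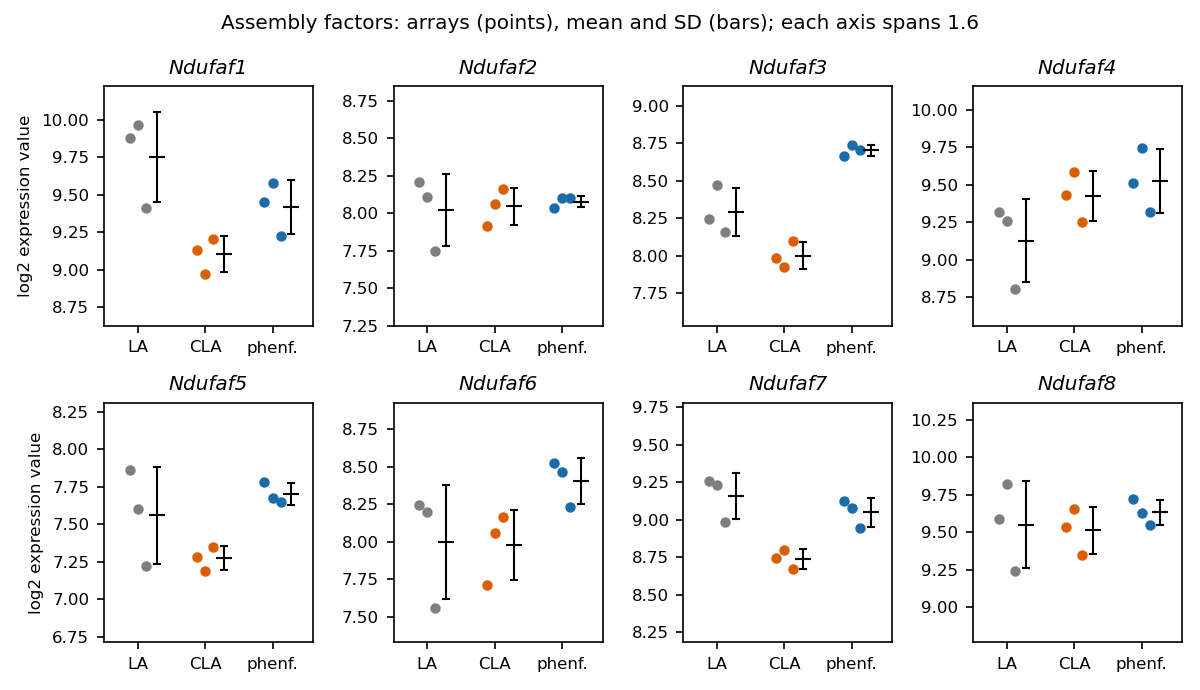
Log2 expression values (vertical axis, each spanning 1.6) of the 8 assembly factors on each array (points) in LA, CLA and phenformin, with the mean and SD as bars. Ndufaf3 is separated into 3 groups, with CLA at 7.92 to 8.10, LA at 8.16 to 8.47 and phenformin at 8.66 to 8.74.

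Several genes with more than 1 probe set gave values of both signs, so a single value can mislead. Of 16 genes with at least 2 single-symbol probe sets of mean 9 or more, 9 had both signs in CLA against LA, 5 in phenformin against LA and 1 in phenformin against CLA. The median spread between probe sets of a gene was 0.31, 0.16 and 0.13 in that order, and in CLA against LA it reached 0.92 in Ndufa5. Ndufv1 had 0.24 on its brightest probe set and -0.39 and -0.56 on the others in CLA, and 0.40, -0.13 and -0.20 in phenformin. For Ndufc1, a proximal arm subunit, the second probe set was called higher in phenformin at 0.74 (adjusted p = 0.00257), while the brightest had 0.26. With probe sets averaged, 3 genes were called higher and 5 lower in CLA, 11 higher in phenformin against LA, and Ndufa6 and Ndufaf3 higher in phenformin against CLA. Of all 18193 genes 3794, 3615 and 1511 were called in that order, 63.3%, 72.6% and 62% of them higher.

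**Figure D5:**
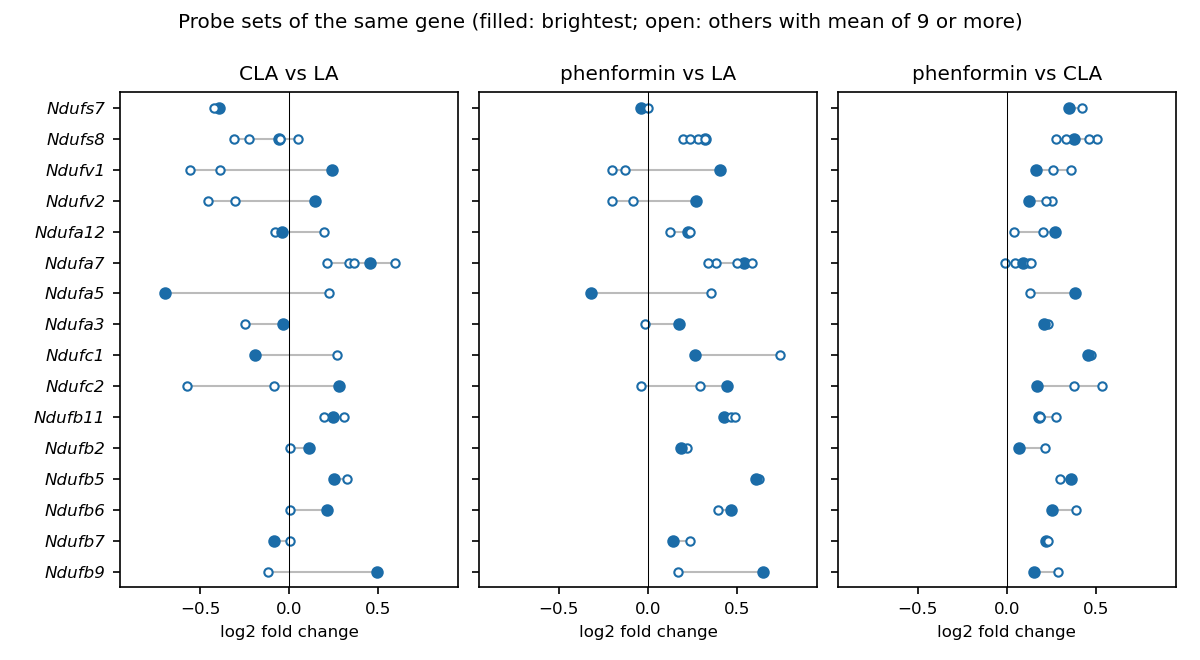
Log2 fold changes (horizontal axis) of the probe sets of 16 complex I genes, with the brightest filled and others of mean 9 or more open, joined by a line, in 3 comparisons. In CLA vs LA 9 genes have probe sets on both sides of 0, and in phenformin vs CLA 1.

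Promoter windows are shown for 4 of the genes whose differences are described above: Ndufaf3, called between phenformin and CLA, Ndufa4, which rose in both treated groups, Ndufa6, which rose in phenformin, and Ndufaf1, which fell in CLA. Each runs from 250 bases before to 50 after the annotated start, on the minus strand of GRCm38.p6, from RefSeq. Capitals mark TGCGCA, the core repeat in sites of the factor NRF1, which controls many respiratory chain genes. Ndufaf3 lies at chr9:108567387-108567686, Ndufa4 at chr6:11907401-11907700, Ndufa6 at chr15:82354242-82354541 and Ndufaf1 at chr2:119662785-119663084.
Ndufaf3: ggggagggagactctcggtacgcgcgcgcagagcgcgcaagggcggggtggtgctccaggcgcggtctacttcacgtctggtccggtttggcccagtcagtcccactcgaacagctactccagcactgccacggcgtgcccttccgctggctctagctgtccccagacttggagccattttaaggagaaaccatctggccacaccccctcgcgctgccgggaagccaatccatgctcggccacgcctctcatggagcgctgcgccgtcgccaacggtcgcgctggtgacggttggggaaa
Ndufa4: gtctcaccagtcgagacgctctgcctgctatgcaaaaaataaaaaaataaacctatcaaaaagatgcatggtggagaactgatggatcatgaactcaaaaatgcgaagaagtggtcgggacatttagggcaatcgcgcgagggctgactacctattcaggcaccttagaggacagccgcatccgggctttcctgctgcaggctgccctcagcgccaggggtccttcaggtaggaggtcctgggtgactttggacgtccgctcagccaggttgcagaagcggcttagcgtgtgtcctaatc
Ndufa6: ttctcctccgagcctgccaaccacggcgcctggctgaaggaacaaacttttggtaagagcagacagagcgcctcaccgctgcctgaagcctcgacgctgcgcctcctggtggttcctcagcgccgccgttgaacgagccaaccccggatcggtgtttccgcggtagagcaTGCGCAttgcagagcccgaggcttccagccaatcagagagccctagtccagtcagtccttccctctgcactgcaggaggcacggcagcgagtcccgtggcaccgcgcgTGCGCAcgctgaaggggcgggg
Ndufaf1: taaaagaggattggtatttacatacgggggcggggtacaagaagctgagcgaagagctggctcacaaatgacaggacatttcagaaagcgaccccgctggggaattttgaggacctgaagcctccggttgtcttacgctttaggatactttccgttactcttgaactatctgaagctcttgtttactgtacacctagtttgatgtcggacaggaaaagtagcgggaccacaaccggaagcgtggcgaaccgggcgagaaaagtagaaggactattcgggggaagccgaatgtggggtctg
Only Ndufa6 among these 4 windows held TGCGCA, at 80 bases before and 28 after the start, and the other 3 held none of the motifs searched. On both strands, 11 of 41 windows of 39 matched members held TGCGCA (26.8%) beside 7.76% of all 32851 windows, with 2 (4.88%) against 1.79% for the CREB site TGACGTCA and 3 (7.32%) against 4.72% for the ESRRA core AAGGTCA. The ETS site CCGGAAGT was in 1 (2.44%) against 3.89%. The member windows had a median GC content of 59.7% against 52.7% and a median ratio of observed to expected CpG of 0.828 against 0.384. Base composition was not matched in these shares. A start on the other strand within 500 bases was found for 13 member windows (31.7%) against 9.86%. A match is a description of letters and not a binding site.

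Genes outside the Nduf names that also serve complex I assembly were examined beside them. Of 11 measured, 3 fell in CLA against LA, beside 7.58% of all genes called lower: Foxred1 by 0.97, Tmem186 by 1.18 and Dmac2 by 0.49 (adjusted p = 0.00059 to 0.0205). In phenformin, Acad9, a partner of Ndufaf1, rose by 0.66 ± 0.17 and Timmdc1, a membrane arm assembly factor, by 1.01 ± 0.24, while Foxred1 fell by 0.55 (adjusted p = 0.0145 to 0.0215), beside 13.7% of all genes called higher and 5.11% lower. Between phenformin and CLA none was called by limma, where 3.95% of all genes were called higher. At an unadjusted p under 0.05, 5 of 11 passed beside 20.6% of all genes, 10 of 11 were above 0, and the median was 0.34.

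Mitochondrial genes outside the respiratory chain served as a reference, listed together with the nuclear regulators Nrf1, Gabpa, Esrra, Ppargc1a and Ppargc1b. Of 18, Cs, the citrate synthase, rose in CLA by 0.54 ± 0.15 and in phenformin by 0.72 ± 0.15. The import subunit Timm44, the receptor Esrra and the coactivators Ppargc1a and Ppargc1b fell in CLA, by 1.01, 1.08, 0.62 and 1.45 (adjusted p = 6.67e-05 to 0.0422 for these 5). In phenformin against LA, Hspd1, Nrf1 and Ppargc1a rose by 0.63 ± 0.19, 1.07 ± 0.12 and 1.26 ± 0.18, and Esrra and Ppargc1b fell by 0.70 and 0.92 (adjusted p = 0.00029 to 0.0484). Beside these, 12.6% of all genes were called higher and 7.58% lower in CLA, and 13.7% and 5.11% in phenformin. Between phenformin and CLA all 18 values were above 0, with a median of 0.21. The regulators Nrf1 and Ppargc1a alone were called higher, at 0.73 ± 0.12 and 1.87 ± 0.18 (adjusted p = 0.00875 and 0.0004), beside 3.95% of all genes. The 18 genes lay to the same side as the complex I genes, whose median was 0.24, and a difference between both groups of genes was not tested.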

How the data were processed

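RNA of 9 samples was hybridized to Affymetrix mouse arrays, 1 per sample, after Trizol extraction and biotin labelling of cRNA, per the labels' protocols. The authors deposited log2 expression values made with RMA, and R 2.9.0 is named in the submitters' processing notes. Their limma tables hold log2 fold changes, p-values and a score per probe set (moderated t and log odds), per the file headers. The largest difference between those deposited fold changes and the ones computed here was 4.6e-08, and 0 of 44 members had another call.

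Of 45101 probe sets, 64 controls were left out, and 45037 were tested with limma 3.58.1 in R 4.3.3 (lmFit and eBayes over all 9 arrays, two-sided, Benjamini-Hochberg adjustment, threshold 0.05). The array annotation gave 1 symbol to 34945 probe sets, several to 932 and none to 9160. The members had 88 probe sets with 1 symbol and 10 with several, and 22 genes had more than 1. A probe set at or under the 95th percentile of 27 control probe sets (3.68 to 4.20) on every array of a group was taken as not above background there. Folds against such a group are lower bounds computed from the background level. Other computations used Python 3.11.15, pandas 2.3.3 and matplotlib 3.10.9.

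The members and lists were chosen with earlier results of these data known. By the naming rule every member is placed by role, called members are given on every array, and core subunits, the Ndufa4 pair and assembly factors are always named. The ETS motif, the promoters shown and the alternatives for arrays without overlap were chosen after the data were seen. Alternatives were the replicate block, each array left out, the 2 compared groups only, median centring, quantile normalization, a filter on dim probe sets, array weights, an intensity trend with robust estimation, a 3' minus 5' covariate and the mean of probe sets. The reported fit did not pair arrays by number. Deviations of same-numbered arrays correlated at -0.29 to -0.05 between LA and the treated groups, and at 0.09 to 0.58 between CLA and phenformin. On simulated data with the same steps, 64% of 2-fold and 97% of 4-fold changes were called in CLA vs LA, over 45037 probe sets. Far fewer probe sets were changed there than were called in the data, all upward in CLA and with independent noise. Changes under 2-fold, like those of the called members, were not simulated, so these shares do not apply to them. The number of arrays limits the precision, and p-values measure the spread between these cultures.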

Additional observations from a re-analysis of the deposited data

How the results depend on the processing

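Over all probe sets, array weights called 11273 in CLA vs LA, 11123 in phenformin vs LA and 4541 in phenformin vs CLA, against 7426, 7401 and 2048 as reported, and the 3' minus 5' covariate called 4900 and 3646 in the first and second comparison. Leaving out single arrays gave 4788 to 8313 in CLA vs LA, 4954 to 7620 in phenformin vs LA and 820 to 3085 in phenformin vs CLA, lowest without CLA replicate 1, phenformin replicate 1 and phenformin replicate 2 and highest without CLA replicate 3 and, in both comparisons with phenformin, LA replicate 3. Complex I genes called higher in CLA vs LA numbered 2 as reported, 1 in a fit of only the compared groups and with trend and robust estimation (Ndufb4 in both) and with the covariate (Ndufa10), so that neither Ndufa7 nor Ndufa4 held there, 0 after quantile normalization and 0 to 3 without single arrays. Those called lower numbered 3 as reported, 1 in the fit of the compared groups, 19 after quantile normalization, 11 with array weights, 0 with the covariate, 5 over means of probe sets and 0 to 7 without single arrays. In phenformin vs LA, 9 were called higher as reported, 2 after quantile normalization, 3 with the covariate and 5 to 12 without single arrays, and 0 lower as reported, 5 after quantile normalization, 2 with array weights and 0 to 3 without single arrays. In phenformin vs CLA, 1 was called higher as reported, 2 in the fit of the compared groups and over means of probe sets, 4 with array weights and 1 to 5 without single arrays. The median of the subunits was -0.03, 0.27 and 0.22 in the 3 comparisons, -0.37, -0.10 and 0.20 after quantile normalization, and -0.20 to 0.13, 0.0865 to 0.41 and 0.21 to 0.25 without single arrays. The cause of these changes was not tested. Of 15 calls of single members, 2 held in all alternatives and 0 reversed. With the replicate block, 7486, 7299 and 1761 probe sets were called, and Ndufb3 in CLA vs LA (adjusted p = 0.0543) and Ndufaf3 in phenformin vs LA (0.0582) lost their calls, with no other call of a member changed. Deviations of arrays with the same number correlated at -0.29 to -0.05 between LA and the treated groups. Between CLA and phenformin they correlated at 0.29, 0.09 and 0.58 for replicates 1, 2 and 3. Arrays with different numbers in those groups ran from -0.53 to 0.39. Whether same-numbered CLA and phenformin arrays belong together was not tested beyond the replicate block. Dim members, such as Ndufb4, are limited by background.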

Other observations

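A dim probe set of Ndufab1, chosen after its values were seen, differed more than the brightest one. With a mean of 5.77 it fell by 1.85 in CLA vs LA (limma adjusted p = 0.00189), while the brightest had -0.02. The remaining single-symbol probe sets of Ndufab1 differed in sign. They had -0.83 (mean 4.97, adjusted p = 0.0169), -0.62 (mean 6.30, 0.0603) and 1.03 (mean 8.87, 0.313).

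Genes that start within 500 bases of a complex I gene on the other strand were measured for 12 pairs. Of these partners 1 was called higher and 2 lower in CLA vs LA, beside 12.6% and 7.58% of all genes (limma). In phenformin vs LA 2 and 1 were called, beside 13.7% and 5.11%, and 0 in phenformin vs CLA, beside 3.95% and 2.35%. Cpsf2, beside Ndufb1, rose by 1.05 ± 0.16 in CLA, while Ndufb1 had -0.33 ± 0.21. Fam126b, beside Ndufb3, fell by 1.83 in CLA (SE 0.27), and Ndufb3 fell by 0.69. Phf14, beside Ndufa4, fell by 0.60 in CLA (SE 0.18, adjusted p = 0.0473), and Ndufa4 rose by 0.55 ± 0.14. The ribosomal protein gene Rps28, beside Ndufa7, had 0.46 ± 0.15 in CLA and 0.44 ± 0.15 in phenformin against LA (adjusted p = 0.0706 and 0.0806), close in size to Ndufa7 at 0.45 ± 0.11 and 0.54 ± 0.11. Mrpl47, a mitochondrial ribosomal protein gene beside Ndufb5, had 0.39 ± 0.20 and 0.55 ± 0.20.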
